A study of Mus musculus with 8 samples.

Results

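The genes examined here are 34 that work in the endoplasmic reticulum, the compartment in which secreted proteins such as insulin are folded, or that report on its load in the unfolded protein response. They were chosen as a list of gene names by function, not by a rule on their values, though earlier results of these data were known. The list held 8 chaperones and co-chaperones, 7 lectin chaperones and disulfide enzymes, and 9 factors of ER-associated degradation. It also held 5 sensors and regulators, and 5 parts of the translocon and its signal peptidase. All 34 were measured, among 22911 named genes, and each was read from its brightest probe. The study asked which genes differ between islets of βFbln5KO mice and islets of control mice. Controls were Fbln5-floxed mice, and βFbln5KO mice carried the same floxed Fbln5 allele together with Ins1-Cre, a transgene in which the mouse insulin 1 promoter drives Cre in β-cells. Whether the control littermates carried Cre is not given in the sources used here, so loss of Fbln5 and presence of Cre cannot be told apart. Both groups were 11-week-old males, and each of the 4 extractions per group held RNA from 150 islets, taken directly after isolation. Fbln5, or Fibulin-5, is a secreted matrix protein that other islet cells also make, and whole islets hold endocrine, vascular and immune cells beside β-cells.

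Proteins enter the endoplasmic reticulum through the Sec61 channel, are held by chaperones such as BiP, receive sugars and disulfide bonds, and leave for the Golgi only when folded. Those that fail are passed back to the cytosol for degradation. When unfolded protein accumulates, IRE1, ATF6 and PERK are activated in the membrane: IRE1 splices the Xbp1 message, ATF6 is cut to release a transcription factor, and PERK slows translation. XBP1 and ATF6 then raise the transcription of chaperones and degradation factors. β-cells depend on this system because they make proinsulin at a high rate, and its loss or overload is a known cause of diabetes in mice and humans. The arrays read the amount of each message, and neither splicing, cleavage nor phosphorylation was measured.

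Signals are given as log2 values after each array's 75th percentile was set to 0, so that 1 unit is a doubling, and levels of different genes are not compared because each probe has its own brightness. The scanner software called 33592 to 34889 of 59305 spots per array well above background in control and 31214 to 33549 in βFbln5KO, without overlap. Outlier-marked spots numbered 125 to 175 per array in control and 176 to 398 in βFbln5KO. All arrays lay on 1 slide, with controls in slide row 1 and βFbln5KO in slide row 2, and an effect of the slide row cannot be told apart from one of genotype. Fbln5 itself had log2 signals of −1.70, −1.32, −2.05 and −1.83 on control replicates 1 to 4 and of −2.74, −2.40, −2.38 and −1.37 on the arrays labelled βFbln5KO. The array labelled βFbln5KO replicate 4 lay within the control range, and the difference of −0.50 (SE 0.29) was not called (adjusted p = 0.342, limma). The labels say 4 samples per group but do not say that each came from its own mouse, so p-values measure the spread between these samples.

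None of the 34 ER genes differed between the groups at an adjusted p under 0.05 in limma, where 0.0106% of all 56605 probes did. At an unadjusted p under 0.05 the count was 0 higher and 0 lower, beside 1.01% higher and 3.08% lower among the 13650 genes well above background on all 8 arrays, the set to which all 34 belong. In no gene of the list did the groups fail to overlap, beside 0.733% of those 13650 genes higher and 2.07% lower. With 34 genes such shares amount to about 1 gene or less, so counts of 0 are near the background and are not a result about these genes in particular. The log2 fold changes, βFbln5KO over control, ran from −0.20 (Sec61a1) to 0.19 (Pdia4). Their median was −0.015, with 16 genes above 0 and 18 below, a split that depends on the processing. The median over the 13650 genes was −0.0082.

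The 95% interval of the fold change lay within 1.5-fold in either direction for 32 of the 34 genes and within 2-fold for all 34, and it lay within 1.2-fold for 13. Among the 13650 genes the shares were 85.4%, 95.8% and 46.0%. The 2 genes with intervals reaching past 1.5-fold were Derl3 (−0.65 to 0.74) and Sec61a1 (−0.71 to 0.30).

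**Figure D1:**
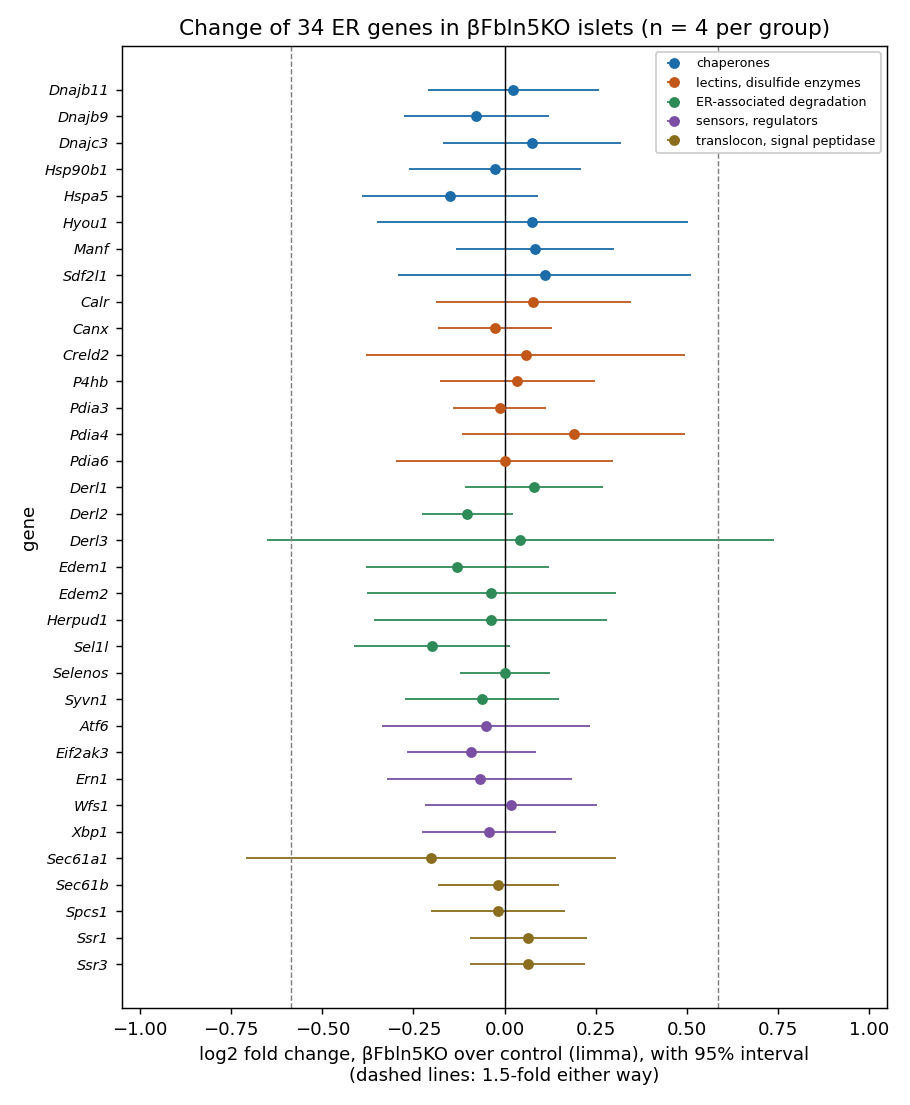
Log2 fold change of βFbln5KO over control islets (x axis) for each of the 34 genes (y axis), with bars for the 95% interval from limma over 4 arrays per group, coloured by role, and dashed lines at 1.5-fold in either direction. The points lie between −0.20 and 0.19, all intervals include 0, and those of Derl3 and Sec61a1 alone cross a dashed line.

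The 5 sensors and regulators had a median log2 fold change of −0.051. Ern1, which encodes IRE1, had log2 signals of −0.014, −0.56, −0.33 and −0.34 on the control arrays and of −0.30, −0.37, −0.33 and −0.52 on the βFbln5KO arrays. Control replicate 1 was the highest and control replicate 2 the lowest of all 8, and the βFbln5KO arrays lay between them. The means were −0.31 ± 0.22 and −0.38 ± 0.098 (SD, n = 4 each), a difference of −0.068 (SE 0.11, adjusted p = 0.796 in limma, p = 0.771 by exact two-sided permutation). Atf6, the membrane-bound transcription factor, had 2.07, 1.76, 1.99 and 1.63 in control and 1.76, 1.99, 1.54 and 1.95 in βFbln5KO. High and low arrays were found in both groups, and the difference was −0.051 (SE 0.13, adjusted p = 0.871, limma). Eif2ak3, which encodes PERK, had 1.17, 1.24, 1.48 and 1.21 in control and 1.07, 1.27, 1.23 and 1.16 in βFbln5KO. Control replicate 3 stood above all other arrays and βFbln5KO replicate 1 below them, with a difference of −0.092 (SE 0.078, adjusted p = 0.561, limma) that was −0.022 without control replicate 3 and −0.055 without βFbln5KO replicate 1.

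Xbp1, the target of IRE1 and itself a transcription factor, had log2 signals of 6.13, 5.92, 6.13 and 6.25 in control and of 6.04, 6.03, 6.08 and 6.10 in βFbln5KO. The βFbln5KO values lay close together (SD 0.033) and inside the control range (SD 0.14). The difference was −0.043 (SE 0.081, adjusted p = 0.828 in limma), and on its other 2 probes it was 0.072 and 0.054, so its sign depends on the probe. Wfs1 encodes wolframin, an ER membrane protein whose loss causes a syndrome with diabetes. Its values were 3.70, 3.53, 3.34 and 3.46 in control and 3.65, 3.70, 3.39 and 3.36 in βFbln5KO, almost the same span in both groups, with a difference of 0.018 (SE 0.10, adjusted p = 0.948, limma). The exact two-sided permutation test gave p = 0.743 for Atf6, 0.371 for Eif2ak3, 0.571 for Xbp1 and 0.857 for Wfs1, where the smallest p it allows is 0.029.

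**Figure D2:**
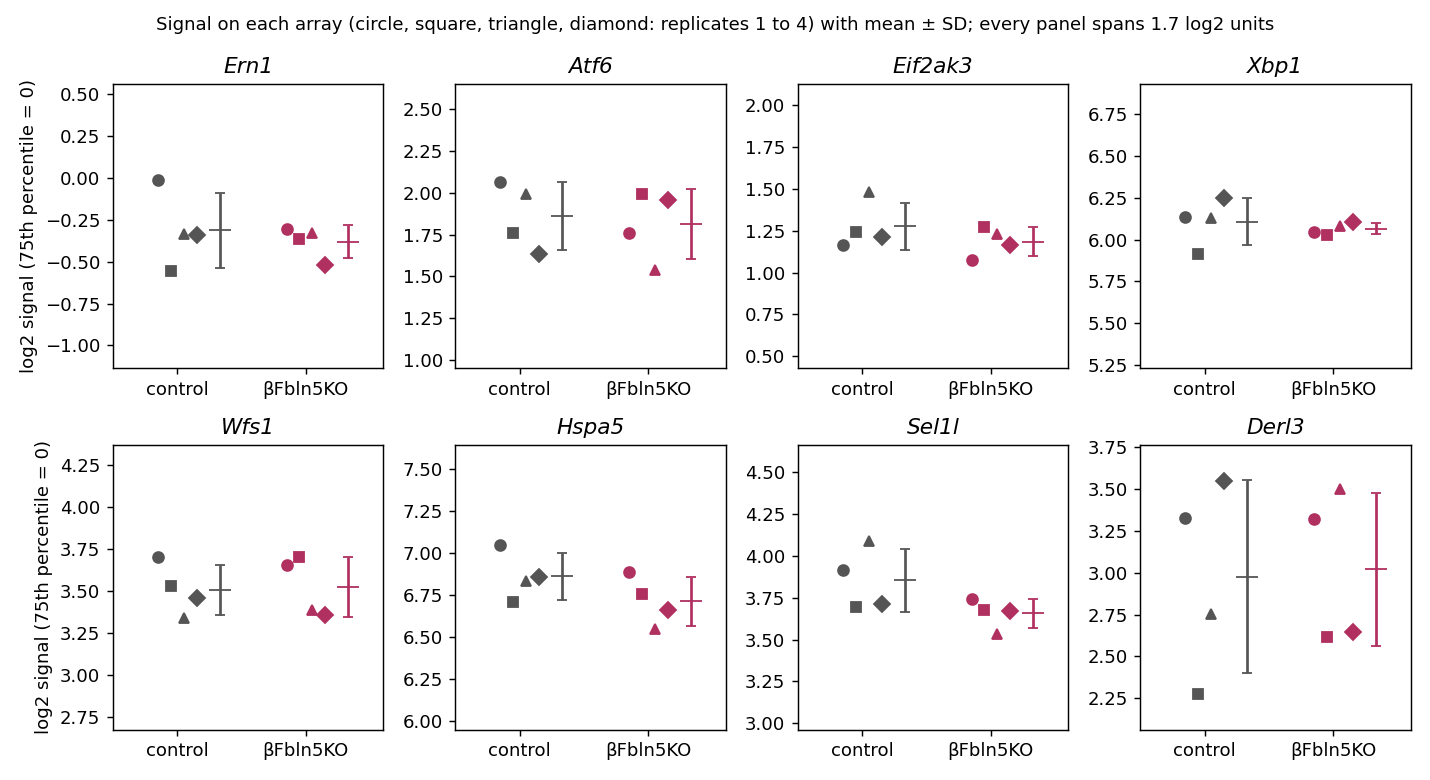
Log2 signal (y axis, 75th percentile of the array = 0) of 8 genes on each control and βFbln5KO array, with a marker shape for each replicate number and the mean ± SD of the 4 arrays beside the points. Every panel spans the same number of log2 units, and in each of them the groups overlap: Xbp1 varied least in βFbln5KO (SD 0.033), and Derl3 spread from 2.28 to 3.55.

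Many targets of ATF6 and XBP1 carry a short promoter element, and the promoters of these genes are shown because the element divides the list. The list was chosen partly for known targets of this response, so the share that carries the element is a description and not independent of the choice. RefSeq promoter sequences (GRCm38.p6, from 250 bases before to 50 bases after the start) were found for 29 of the 34 genes and not for Atf6, Derl1, Hyou1, Manf and Sec61a1. They were searched on both strands for the ER stress response element ERSE (CCAAT, any 9 bases, then CCACG), for ERSE-II (ATTGG, any 1 base, then CCACG) and for the unfolded protein response element UPRE (TGACGTGG). ERSE stood in 9 of the 29 genes (31.0%): Hspa5, Hsp90b1, Calr, Canx, Pdia6, Dnajc3, Syvn1, Derl3 and Creld2. It stood in 37 of all 27025 genes with a promoter sequence (0.137%) and in 1 of 85 of the other ER genes (1.18%). ERSE-II stood in Dnajb11 and Herpud1 (6.90%), beside 0.0444% of all genes and 1.18% of the other ER genes. The 8 letters of UPRE stood in none of the 29, beside 0.714% of all genes and 4 of 85 of the other ER genes (4.71%). A match is a run of letters and not a measured binding site, and the absence of a match says only that these letters are not in this window. The following sequences run from 5′ to 3′ on the strand that carries the element, which is in capitals. The Hspa5 sequence is the whole stretch of 250 bases before the start (chr2:34771840-34772089, plus strand), with the element 65 to 47 bases before the start, and the others show the element with up to 20 bases on either side.
Hspa5: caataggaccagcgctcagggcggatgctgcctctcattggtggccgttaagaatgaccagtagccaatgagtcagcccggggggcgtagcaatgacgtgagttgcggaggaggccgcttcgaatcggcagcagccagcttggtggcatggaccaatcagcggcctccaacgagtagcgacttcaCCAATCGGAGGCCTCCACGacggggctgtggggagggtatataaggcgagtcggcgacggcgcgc
Hsp90b1, chr10:86705618-86705676, minus strand: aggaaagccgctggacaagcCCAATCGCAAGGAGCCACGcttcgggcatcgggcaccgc
Hsp90b1, chr10:86705513-86705571, plus strand: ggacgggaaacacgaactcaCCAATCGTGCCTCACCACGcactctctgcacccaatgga
Calr, chr8:84847055-84847113, plus strand: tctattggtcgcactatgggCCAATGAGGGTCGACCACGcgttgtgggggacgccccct
Pdia6, chr12:17266471-17266529, plus strand: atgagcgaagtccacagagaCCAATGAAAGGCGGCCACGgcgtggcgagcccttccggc
Creld2, chr15:88819500-88819558, minus strand: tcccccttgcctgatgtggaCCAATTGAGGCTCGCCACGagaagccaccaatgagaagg
Derl3, chr10:75893222-75893280, minus strand: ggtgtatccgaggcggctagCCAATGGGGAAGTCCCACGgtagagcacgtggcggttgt
Herpud1, chr8:94386357-94386407, plus strand: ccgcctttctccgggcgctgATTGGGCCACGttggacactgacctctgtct
Hsp90b1 was the gene with 2 copies, 1 on each strand, and in Herpud1 the capitals are ERSE-II. The 11 genes with either element had a median log2 fold change of 0.00026, with 6 higher and 5 lower in βFbln5KO, and the 18 genes with neither had a median of −0.017, with 7 higher.

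The 8 chaperones and co-chaperones lay between −0.15 and 0.11 in log2 fold change, with the median at 0.049. Hspa5 encodes BiP, the main ER chaperone and the usual marker of ER stress. Its log2 signals were 7.05, 6.71, 6.83 and 6.85 in control and 6.89, 6.76, 6.54 and 6.66 in βFbln5KO. The lowest 2 arrays of the 8 were βFbln5KO replicates 3 and 4, but the other 2 βFbln5KO arrays lay inside the control range. The means were 6.86 ± 0.14 and 6.71 ± 0.15 (SD, n = 4 each), a difference of −0.15 (SE 0.11, 95% interval −0.39 to 0.091, adjusted p = 0.464 in limma, p = 0.229 by exact permutation). Its other probes gave −0.12 and −0.079. The value was −0.019 with quantile normalization, −0.088 without control replicate 1 and −0.094 without βFbln5KO replicate 3. Hsp90b1, which encodes the ER form of HSP90, differed by −0.027 (SE 0.10), and its 95% interval of −0.26 to 0.21 covers changes of up to about 1.2-fold.

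The J-domain proteins steer client proteins to BiP. Dnajb11 differed by 0.024, Dnajb9 by −0.077 and Dnajc3 by 0.075, with SEs of 0.10, 0.087 and 0.11. Dnajb11 has a dim probe, not well above background on any array, whose fitted value is not a fold, and a further bright probe that gave −0.040. Hyou1 encodes a nucleotide exchange factor of BiP and Sdf2l1 a partner of the J-domain proteins. Hyou1 had log2 signals of 1.15, 0.46, 0.69 and 1.04 in control and of 1.16, 0.71, 1.20 and 0.59 in βFbln5KO. Sdf2l1 had 4.06, 3.59, 3.45 and 4.22 in control and 4.06, 3.82, 4.15 and 3.74 in βFbln5KO. In Hyou1 each group held arrays at the top and at the bottom of the range, and in Sdf2l1 all βFbln5KO arrays lay inside the control range. The differences were 0.076 (SE 0.19) for Hyou1 and 0.11 (SE 0.18) for Sdf2l1. Hyou1 gave 0.023 and −0.048 on its other probes, so that the sign depends on the probe in Hyou1 and in Dnajb11. Manf, an ER-resident factor that is secreted under stress, differed by 0.083 (SE 0.096).

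The lectin chaperones and disulfide enzymes had a median of 0.036. Calr and Canx, calreticulin and calnexin, bind sugar-bearing proteins and hold them for refolding, and they differed by 0.079 (SE 0.12) and −0.027 (SE 0.069). The disulfide isomerases Pdia3, Pdia6 and P4hb differed by −0.013 (SE 0.056), 0.00026 (SE 0.13) and 0.036 (SE 0.093). Pdia4, another disulfide isomerase, had log2 signals of 2.12, 1.43, 1.54 and 1.73 in control and of 1.98, 1.78, 1.88 and 1.95 in βFbln5KO. The βFbln5KO arrays lay above 3 of the 4 controls and below control replicate 1. The difference was 0.19 (SE 0.13, adjusted p = 0.465 in limma, p = 0.286 by exact permutation). It was 0.33 without control replicate 1 (adjusted p = 0.154, limma), so that this array sets much of the value. Creld2, a secreted ER stress-induced protein, had 5.82, 5.10, 5.27 and 5.84 in control and 5.82, 5.27, 5.67 and 5.49 in βFbln5KO, with a difference of 0.058 (SE 0.19).

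The 9 factors of ER-associated degradation had a median of −0.038, and the smallest p of the whole list was among them. Sel1l encodes the adaptor that holds the ubiquitin ligase HRD1 in its complex. Its log2 signals were 3.92, 3.69, 4.09 and 3.72 in control and 3.74, 3.68, 3.53 and 3.67 in βFbln5KO. All βFbln5KO arrays but replicate 1 lay below the lowest control, and the groups overlapped by that 1 array. The difference was −0.20 (SE 0.094, 95% interval −0.41 to 0.015, unadjusted p = 0.065 and adjusted p = 0.241 in limma, p = 0.143 by exact permutation). Its other, dimmer probe, also well above background on all 8 arrays, read −0.58, −0.78, −0.74 and −0.80 in control and −0.86, −0.96, −0.88 and −1.04 in βFbln5KO. There the groups did not overlap, with a difference of −0.21 (SE 0.075, adjusted p = 0.108 in limma, unadjusted p = 0.020, and p = 0.029 by exact permutation, the smallest the design allows). This was 1 of 55 such probes of the list, where of 26612 probes with signal that far above background on every array, 3.48% were lower without overlap and 5.42% lower by the unadjusted p.

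Syvn1, which encodes HRD1 itself, differed by −0.062 (SE 0.093), and Herpud1, which helps to assemble that complex, by −0.038 (SE 0.14). Edem1 and Edem2 mark misfolded glycoproteins for disposal and differed by −0.13 (SE 0.11) and −0.037 (SE 0.15), the latter turning to 0.056 on the other probe of Edem2. The derlins form part of the exit channel, and Derl2 had log2 signals of 4.33, 4.17, 4.27 and 4.31 in control and 4.19, 4.23, 4.11 and 4.14 in βFbln5KO. The difference of −0.10 (SE 0.055, adjusted p = 0.308 in limma, p = 0.086 by exact permutation) was 1 of the more precise on the list, and the groups overlapped. Its other probe gave −0.024 (SE 0.066). Derl1 differed by 0.081 (SE 0.084) and Selenos, a selenoprotein that recruits the extracting ATPase to derlins, by 0.0012 (SE 0.054). Derl3 read 3.33, 2.28, 2.75 and 3.55 in control and 3.32, 2.61, 3.50 and 2.64 in βFbln5KO, so that it was high on 2 arrays of each group and low on the others, with a difference of 0.043 (SE 0.31).

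Of the translocon genes, Sec61b differed by −0.017 (SE 0.073), and by 0.0072 on its other probe. Ssr1 and Ssr3, subunits of the complex that assists the channel, differed by 0.066 and 0.063 (SE 0.070 each), and by −0.067 and −0.15 (SE 0.12 and 0.13) on their dimmer probes, so that the sign depends on the probe. Spcs1, a signal peptidase subunit, differed by −0.018 (SE 0.081). Sec61a1 encodes the channel subunit. Its brightest probe read 5.41, 4.97, 4.95 and 4.81 in control and 5.29, 5.16, 4.33 and 4.56 in βFbln5KO, a difference of −0.20 (SE 0.22, adjusted p = 0.674 in limma, p = 0.486 by exact permutation). βFbln5KO replicates 3 and 4 were the lowest 2 arrays. On the dimmest probe of this gene replicate 3 was instead the highest of the 8 arrays at −1.44, and the difference was 0.0094. On the remaining probe replicate 3 was the highest βFbln5KO array at 0.22, replicate 4 was again among the lowest at −0.094, and the difference was −0.18. The genes given by array beyond the sensors, Xbp1, Wfs1 and Hspa5 were chosen after their values were seen, for their size of change or spread.

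Between arrays of 1 group, many of the ER genes moved together. On control replicate 1, 28 of the 34 genes lay above their own mean over the 8 arrays, and on control replicate 2 only 4 did. Control replicates 3 and 4 had 14 and 25, and βFbln5KO replicates 1 to 4 had 24, 11, 17 and 10. These counts depend on the scaling: control replicate 2 had 7 with normexp, control replicate 3 had 7 with quantile normalization and 8 with normexp, βFbln5KO replicate 2 had 17 with quantile normalization, and βFbln5KO replicate 4 had 19 with normexp. The median deviation of the list was 0.16 on control replicate 1 and −0.15 on control replicate 2, the highest and the lowest of the 8 arrays. Of all genes well above background, 37.4% lay above their own mean on control replicate 1 and 51.2% on control replicate 2. The other ER genes moved like the list, though less far: of 106 with a value on every array, 66 (62.3%) lay above their mean on control replicate 1 and 20 (18.9%) on control replicate 2, with median deviations of 0.031 and −0.091. The swing is therefore not particular to the 34. All of the 8 chaperones lay above their mean on control replicate 1 and none on control replicate 2. With normexp, Hspa5 lay above its mean on control replicate 2. On βFbln5KO replicates 1 and 3, all of the 7 lectin and disulfide genes lay above their mean, and on βFbln5KO replicate 2 none did. These counts by role depend on the scaling too. With quantile normalization Calr, Canx and Pdia6 lay above their mean on βFbln5KO replicate 2, and Pdia3 lay below it on βFbln5KO replicate 1. With normexp Canx and Pdia6 lay above it on βFbln5KO replicate 2, and Canx lay below it on βFbln5KO replicate 3. These counts describe 8 arrays and carry no test, since genes on 1 array share its RNA. The part of RNA quality, labelling or the state of the islets in them was not tested.

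**Figure D3:**
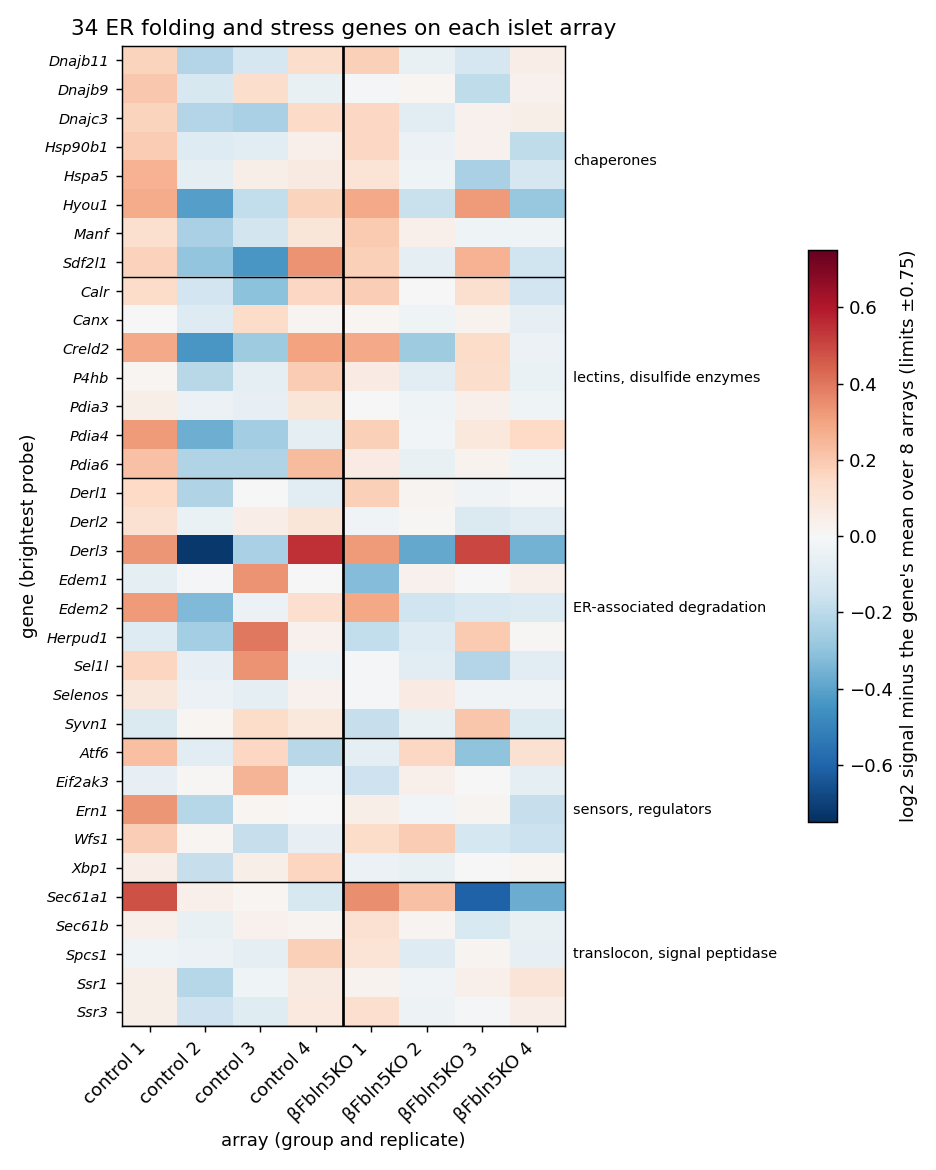
Log2 signal of each of the 34 genes (rows, by role) on each array (columns) minus that gene's mean over the 8 arrays, red above and blue below, with a black line between the 4 control and the 4 βFbln5KO arrays. Control replicate 1 is red in 28 rows and control replicate 2 is blue in 30, while no role is of 1 colour on all arrays of a group.

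Grouped by promoter element, the 11 genes with ERSE or ERSE-II were above their own mean in 11 of 11 cases on control replicate 4 and in 0 of 11 on βFbln5KO replicate 2. On control replicates 1 to 3 they were above it in 8, 1 and 4 cases, and on βFbln5KO replicates 1, 3 and 4 in 9, 9 and 3. The 18 genes with neither element were above it in 12 cases on control replicate 4 and 7 on βFbln5KO replicate 2. The extremes depend on the scaling: of the 11 genes, 8 on control replicate 4 and 5 on βFbln5KO replicate 2 lay above their mean with quantile normalization, and 10 and 4 with normexp. The median within-group SD was 0.17 for the genes with an element and 0.12 for those without. These are descriptions of the same 8 arrays.

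The spread itself differed widely along the list. The median within-group SD was 0.15, beside 0.13 over the genes well above background. Derl3 varied most, with an SD of 0.52 that 96.1% of those genes did not reach, and a 2.41-fold range over the 8 arrays. Sec61a1 spanned 2.12-fold on its brightest probe, Sdf2l1 1.71-fold, Creld2 1.67-fold and Hyou1 1.66-fold. Pdia3 and Selenos were the steadiest, at 1.12-fold each, with SDs of 0.058 and 0.059. Derl3, Creld2 and Sdf2l1 had their highest signal on control replicate 4, and Derl3, Creld2 and Hyou1 their lowest on control replicate 2.

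**Figure D4:**
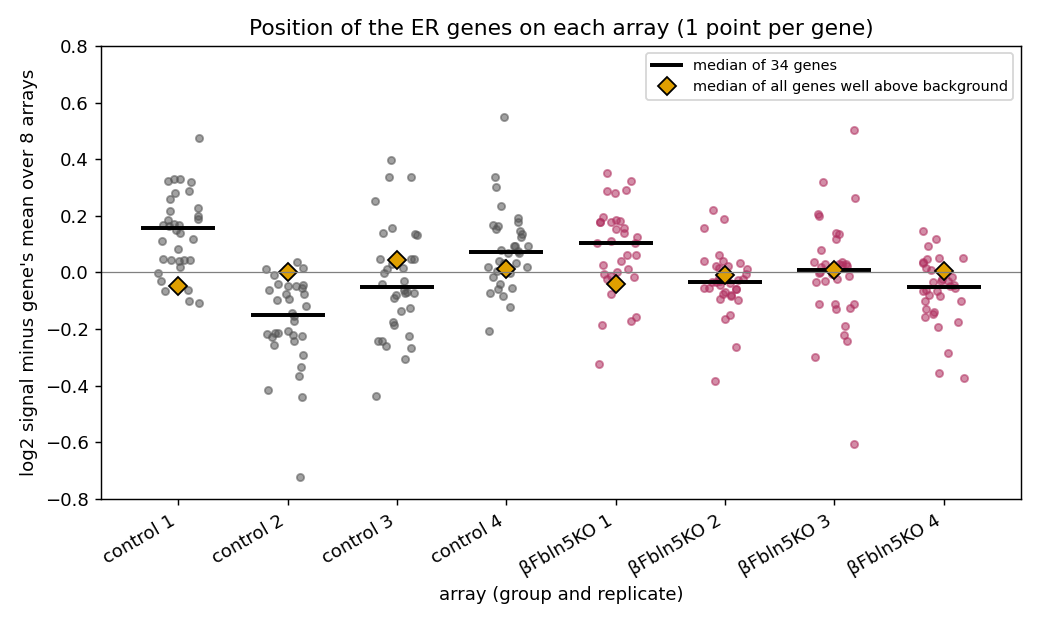
Log2 signal minus the gene's mean over the 8 arrays (y axis) for the 34 genes on each array (x axis), 1 point per gene, with a black bar for their median and a diamond for the median of all genes well above background. The bars run from −0.15 (control replicate 2) to 0.16 (control replicate 1), while the diamonds stay between −0.047 and 0.042.

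Markers of the cells in an islet preparation were read beside these results. In bulk RNA, fewer cells of a type and less RNA per cell cannot be told apart. All 8 β-cell markers, among them Ins1, Ins2 and Mafa, were well above background on all arrays. Their summed signal, in multiples of the array's 75th percentile, was 1204 to 1465 in control and 1173 to 1222 in βFbln5KO. Of the 8, 6 had lower means in βFbln5KO (median log2 fold change −0.095), and none passed an unadjusted p under 0.05. Iapp was lower without overlap between the groups, beside 2.07% of all genes well above background. All 17 markers of acinar cells, the enzyme-secreting cells around islets that are themselves rich in ER, had lower means in βFbln5KO (median log2 fold change −1.13), and 1 of 17 passed an unadjusted p under 0.05. Their summed signal was 1599, 1324, 4400.3 and 3435 in control and 1500.5, 789, 823 and 2548 in βFbln5KO, with overlap between the groups. In the same order of arrays, 28, 4, 14 and 25 of the 34 ER genes lay above their mean in control and 24, 11, 17 and 10 in βFbln5KO, with the dependence on scaling given above. The part of acinar RNA in the ER genes' values was not tested. All 5 α-cell markers had lower means in βFbln5KO, 1 at an unadjusted p under 0.05 and 2 without overlap. Their summed signal was 274 to 310.0 in control and 246 to 276 in βFbln5KO. The summed ranges overlapped between the groups for delta, PP, ductal, endothelial, macrophage and mesenchymal markers, with no gene at an unadjusted p under 0.05. Of the 4 plasma cell markers, Jchain, Mzb1, Tnfrsf17 and Sdc1, 0 were well above background on all arrays.

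Another 111 genes of the same compartment were read from 7 lists: ER calcium, degradation cofactors, disulfide formation, folding cofactors, the integrated stress response, other sensors and proteases, and translocation with N-glycosylation. The adjusted p of limma called none of them, and its unadjusted p was under 0.05 for 4 of them, 2 in each direction. These 4 did not overlap between the groups either. Such counts are near the shares over all genes well above background, of 1.01% higher and 3.08% lower by that p and of 0.733% and 2.07% without overlap. The median log2 fold change of the 111 genes was 0.0024. Tmx1 (0.15, SE 0.057, adjusted p = 0.126), a transmembrane thioredoxin, and Cnpy3 (0.13, SE 0.054, adjusted p = 0.189), a co-chaperone, were higher without overlap. Tmx3 (−0.21, SE 0.082, adjusted p = 0.152), also a transmembrane thioredoxin, was lower without overlap. With normexp the unadjusted p called none of Tmx1, Cnpy3 and Tmx3. Cnpy3 was also not called with quantile normalization, with eBayes without trend, or with the replicate number as a block. The fourth was Ern2, a relative of Ern1 in secretory epithelia and named after its values were seen. Its signal was called well above background on 2 control arrays and on 0 βFbln5KO arrays. It was not called (adjusted p = 0.0908, limma), and no fold is given because most of its values are not well above background. Ero1b, the oxidase that restores disulfide isomerases in β-cells, differed by 0.013 (SE 0.096). Atf4 and Ddit3, the transcription factors downstream of PERK, differed by 0.050 (SE 0.13) and −0.047 (SE 0.19). Their arrays spanned 6.53 to 7.05 and 0.070 to 0.73 in control and 6.55 to 6.86 and 0.17 to 0.88 in βFbln5KO.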

How the data were processed

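Islet RNA from 4 control and 4 βFbln5KO samples was labelled with Cy3 and hybridised to 1 slide of 8 one-colour Agilent mouse arrays. The authors deposited, for each array, the processed signal of Agilent Feature Extraction 11.0.1.1 (version per the labels), an intensity that the software corrected for background and for spatial trends, with no normalization across arrays. The authors also deposited a table in which each value is a ratio of the processed signal to 1 number per array, and this table served as an alternative. Signals of 59305 non-control spots per array were put on the log2 scale, each array's 75th percentile was subtracted, outlier-marked values (0.356%) were left out, and replicate spots were averaged, which left 56605 probes. Probes were named through their RefSeq accessions (32994 of them, 22911 genes), and a gene was read from its brightest probe. All probes were fitted with limma 3.58.1 in R 4.3.3 (lmFit, eBayes with trend, no covariates) with p-values adjusted over all probes (Benjamini-Hochberg) and called under 0.05. Intervals are limma's 95% intervals. Single values were also compared by exact two-sided permutation over the 8 arrays. The number of arrays limits the precision.

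The genes, the lists and the cell type markers were chosen with earlier results of these data known. Named were Fbln5, all 34 genes, by array those with an unadjusted p under 0.05 or no overlap and in any case Hspa5, Xbp1, Ern1, Atf6, Eif2ak3 and Wfs1. None of the 34 met the first part of this rule, and 8 more, Hyou1, Sdf2l1, Pdia4, Creld2, Sel1l, Derl2, Derl3 and Sec61a1, were given by array outside the rule, chosen after their values were seen. Of the 111 other ER genes, up to 10 with the smallest p under 0.05 that were well above background on all arrays were named, and in any case Ero1b, Atf4 and Ddit3. Promoters came from RefSeq (GRCm38.p6) and were read in the gene's direction. Alternatives were normexp with an offset of 50 followed by quantile normalization, quantile normalization alone, only probes that 4 or more arrays showed well above background, a floor common to all arrays, eBayes without trend, outlier-marked spots kept, the mean of a gene's probes or the probe of smallest p, the methods' t-test, the deposited table, a block for replicate number, and leaving out each array singly. The script was tested on simulated data. Plots used matplotlib 3.10.9 and Python 3.11.15.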

Additional observations from a re-analysis of the deposited data

Results flagged for a closer look

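In 4 of 68 groups of 4 arrays (34 genes in 2 genotypes) 1 array stood far from the other 3, and chance alone gives about 1 in 20. Edem1 was flagged in both genotypes. Its log2 signal was 2.42 on control replicate 3, where the others lay between 2.02 and 2.08, and 1.76 on βFbln5KO replicate 1, where the others lay between 2.08 and 2.12. On the second probe of Edem1 neither array stood apart: control replicate 3 read 1.49 and control replicate 4 read 1.54, and βFbln5KO replicate 1 was the highest of its group at 1.40. Edem2 was 0.094 on βFbln5KO replicate 1, where the others lay between −0.35 and −0.30. Spcs1 was 6.12 on control replicate 4, where the others lay between 5.88 and 5.91.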

How the results depend on the processing

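None of the 34 ER genes reached an adjusted p under 0.05 under any of the 19 alternatives. The most probes were called without βFbln5KO replicate 4 (11544) and with eBayes without trend (6578). Of the 13650 genes well above background on all 8 arrays, these 2 settings called only 91 and 36. Beside so few calls, 0 of the 34 is not a result about these genes in particular. Of the 34, 24 had a log2 fold change above 0 with normexp, 22 with quantile normalization and 9 without control replicate 2. The median log2 fold change of the 34 stayed between −0.064 (without control replicate 2) and 0.048 (quantile normalization). Over the 8 settings that leave out 1 array it ran from −0.064 to 0.031. At an unadjusted p under 0.05 these settings called 0 to 1 of the 34 higher and 0 to 2 lower: Pdia4 higher without control replicate 1, Sel1l lower without control replicate 4, and Sel1l and Derl2 lower without control replicate 2. With the mean of all probes 1 was lower (Sel1l). With the probe of smallest p 1 was lower (Sel1l) and 1 higher (Dnajb11, on its dim probe). Of the other ER genes, 2 higher and 2 lower in the report, leaving out 1 array gave 0 to 4 higher and 1 to 5 lower. Normexp gave 1 and 0, where the 1 was Selenok, and none of Tmx1, Cnpy3, Tmx3 and Ern2 was called. With quantile normalization Selenok took the place of Cnpy3. The filter on dim probes gave 1 and 1, the mean of probes 1 and 4, the common floor 1 lower and the smallest p 6 lower. With eBayes without trend 0 were higher, and there was 1 adjusted call (Ern2). The sign of small differences turned in several settings, none past the threshold. Xbp1 became 0.038 with normexp, 0.059 with quantile normalization, 0.028 with the mean of probes, 0.072 with the probe of smallest p and 0.0044 without control replicate 4. Atf6 became 0.017 without control replicate 1 and 0.040 without βFbln5KO replicate 3, and Ern1 0.031 without control replicate 1. Wfs1 became −0.037 without control replicate 3, −0.024 without βFbln5KO replicate 1 and −0.041 without βFbln5KO replicate 2. Over the 8 settings without 1 array, Xbp1 ran from −0.11 to 0.0044, Atf6 from −0.13 to 0.040, Ern1 from −0.15 to 0.031, Wfs1 from −0.041 to 0.084, Hspa5 from −0.21 to −0.088 and Eif2ak3 from −0.13 to −0.022. Hspa5 was −0.019 with quantile normalization. Causes of these shifts were not tested. The deposited table holds 32 of the 34 genes, without Edem2 and Ern1. The counts of genes above their own mean by array were recomputed after seeing the data: control replicates 1 and 2 had 30 and 5 with quantile normalization, 30 and 7 with normexp, and 25 and 4 of 32 in the deposited table. With quantile normalization control replicates 3 and 4 had 7 and 20 and βFbln5KO replicates 1 to 4 had 24, 17, 18 and 12. With normexp these were 8 and 23, and 27, 14, 15 and 19.

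Groups share replicate numbers, but these are also positions on the slide and nothing says that they pair mice. Deviations of same-numbered arrays from their group means correlated at 0.20, 0.35, −0.26 and −0.050 over 13552 genes, and replicates 3 and 4 did not match their own number best. With the replicate number as a block, 0 of the 34 genes were called at an adjusted or unadjusted p under 0.05, 2 probes of all passed the adjusted threshold, and the unadjusted p called 2 of the other ER genes higher (Tmx1, Pdia5) and 3 lower (Ern2, Pdia2, Tmx3), with Cnpy3 lost.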

Other observations

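Among the other ER genes the widest difference was that of Pdia2, a disulfide isomerase made in the exocrine pancreas, which was named after its values were seen. Its log2 signals were 4.19, 3.87, 6.72 and 5.83 in control and 3.67, 2.85, 2.87 and 5.41 in βFbln5KO, a difference of −1.45 (SE 0.75, adjusted p = 0.289 in limma, p = 0.171 by exact two-sided permutation). With the replicate number as a block its unadjusted p was 0.042 and its adjusted p 0.222 in limma. The highest arrays in each group, control replicates 3 and 4 and βFbln5KO replicate 4, were also those with the highest summed acinar markers in their group. Of the 34 genes of the report, 14, 25 and 10 lay above their own mean on these 3 arrays, and with normexp 8, 23 and 19. The part of acinar RNA in either was not tested.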
